A study of Mus musculus with 24 samples.

Results

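The GABA-A receptor subunits described here are the 7 genes Gabra2, Gabra3, Gabra4, Gabra5, Gabrb1, Gabrb2 and Gabrd, measured in mouse hippocampus. Their 11 probes were found by the RefSeq identifier that the array design gives each probe, out of 56605 probes that are not controls. All 11 were well above background on all 24 arrays and were among the 43973 probes tested, which hold 18566 named genes. The choice of genes did not use the measured values, but it was made with earlier results of these data known.

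GABA-A receptors are chloride channels of 5 subunits that open when GABA binds, and they carry most fast inhibition in the brain. The usual synaptic receptor joins alpha and beta subunits to a gamma subunit, and the alpha subunit sets its place in the cell and its response to benzodiazepines. In the hippocampus alpha2 is known from the axon initial segments and synapses of pyramidal cells, and alpha5 from extrasynaptic receptors of pyramidal cell dendrites that carry tonic inhibition. Alpha4 pairs with delta in extrasynaptic receptors of dentate granule cells that respond to low ambient GABA and to neurosteroids. Alpha3 is known mainly from other brain regions and from monoaminergic and thalamic reticular neurons, and the beta subunits hold part of the GABA site and are needed for assembly.

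The study gave urolithin A, a gut bacterial metabolite of ellagitannins known as an inducer of mitophagy, to APP/PS1 mice, a transgenic line that forms amyloid plaques. All 24 animals were male, and all 6 groups have the same strain name in the labels, that of a congenic line on a B6 background. WT_CTR (n = 4) lacked both transgenes of the line and received water, APP-PS1_CTR (n = 3) carried both and received water, and APP-PS1_UA (n = 4) carried both and received urolithin A, and these have an age of 8 months in the sample labels. WT_WASHOUT (n = 5, without the transgenes) and APP-PS1_WASHOUT (n = 3, with both) received water, and APP-PS1_UA-WASHOUT (n = 5, with both) received urolithin A, each followed by 1 month without gavage, at a labelled age of 9 months. Gavage ran from 2 to 7 months of age, and the study's description places collection at 7 months and 1 month later. The sources disagree on the daily dose, which the protocol puts at 200 mg/kg and the study's description at 20 mg/kg. No wild-type group received urolithin A, so its effect was measured only on the transgenic background. In this line both transgenes are driven by a mouse prion protein promoter, which is active in neurons and glia.

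RefSeq promoters (build GRCm38.p6, 250 bases before to 50 after a gene start) were on hand for 6 of the 7 genes, Gabrd being the other. They are shown for Gabra2, which the results turn on, for Gabra4 and Gabrb1, which lie next to each other and varied in opposite directions between arrays, and for Gabra3, whose level spread widely. Capitals mark a GC box (GGGCGG or CCGCCC) or a TATA box (TATAAA or TTTATA), searched on both strands. The Gabra2 window is chr5:71095800-71096099 on the minus strand, that of Gabra4 is chr5:71658259-71658558 on the minus strand, that of the first Gabrb1 start is chr5:71657671-71657970 on the plus strand, and that of the first Gabra3 start is chrX:72656870-72657169 on the minus strand.
Gabra2: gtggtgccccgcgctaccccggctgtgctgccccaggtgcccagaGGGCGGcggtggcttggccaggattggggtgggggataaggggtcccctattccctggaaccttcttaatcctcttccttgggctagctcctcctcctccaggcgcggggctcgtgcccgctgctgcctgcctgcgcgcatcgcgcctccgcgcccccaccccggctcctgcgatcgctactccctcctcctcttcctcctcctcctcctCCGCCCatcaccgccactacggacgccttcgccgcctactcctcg
Gabra4: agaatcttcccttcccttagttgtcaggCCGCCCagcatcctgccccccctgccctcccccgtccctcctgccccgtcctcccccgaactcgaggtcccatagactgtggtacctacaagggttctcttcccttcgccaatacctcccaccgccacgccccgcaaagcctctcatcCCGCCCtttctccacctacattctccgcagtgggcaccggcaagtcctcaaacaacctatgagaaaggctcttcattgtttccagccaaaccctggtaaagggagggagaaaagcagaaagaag
Gabrb1: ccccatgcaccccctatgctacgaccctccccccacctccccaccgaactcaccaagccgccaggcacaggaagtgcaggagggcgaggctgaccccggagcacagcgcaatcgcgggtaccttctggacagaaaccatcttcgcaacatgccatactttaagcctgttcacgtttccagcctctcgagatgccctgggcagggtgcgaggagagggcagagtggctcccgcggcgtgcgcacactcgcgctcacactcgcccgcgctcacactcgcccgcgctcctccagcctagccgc
Gabra3: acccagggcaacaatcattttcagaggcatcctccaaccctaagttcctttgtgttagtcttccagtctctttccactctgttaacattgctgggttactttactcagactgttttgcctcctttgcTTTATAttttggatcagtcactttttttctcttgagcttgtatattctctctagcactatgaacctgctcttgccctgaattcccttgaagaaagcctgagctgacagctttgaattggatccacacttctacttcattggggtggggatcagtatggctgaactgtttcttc
The Gabra2 window had 70% G and C and 25 CpG pairs, against medians of 52.7% and 7 over 32851 mouse promoters of the same length. It held 2 GC boxes, as did that of Gabra4, and 35.66% of all promoters hold at least 1. The first Gabrb1 window also had 25 CpG pairs and held no GC box. The Gabra3 window had 43% G and C and 0 CpG pairs, and it held a TATA box, which 13.62% of promoters hold. The second Gabrb1 window held an NRF1 site (0.97% of promoters), and no window held a cAMP response element (TGACGTCA, 1.79%), an EGR site (GCGTGGGCG, 0.61%) or an E-box (CACGTG, 7.15%). The annotated starts of Gabra4 and Gabrb1 lie 387 bases apart on opposite strands, each within the stretch the other gene transcribes, so their 5′ ends overlap. Gabra5 lies next to Gabrg3, Gabra2 between Gabrg1 and Cox7b2, Gabrb2 next to Gabra6 and Gabra3 next to Gabrq, while Gabrd lies between Prkcz and Cfap74, which are no receptor genes.

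Levels are log2 processed signals minus the 75th percentile of the array, and a change is a difference of group means in log2 units with its standard error (SE). A call is an adjusted p (Benjamini-Hochberg, over all 43973 probes of a contrast) under 0.05 by limma, and a gene was counted by its brightest probe. Levels of different probes cannot be set against each other. Each array is a separate animal by its label, and p-values measure the spread between these animals. In bulk tissue fewer cells of a type and less RNA per cell cannot be told apart.

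Arrays of one group correlated at 0.976 or above, and the share of spots well above background ran from 63.7% to 76.9% per array. The arrays lay on 3 slides of 8. Slide 1 held WT_CTR, APP-PS1_CTR and 1 APP-PS1_UA array, slide 2 held WT_WASHOUT with 3 APP-PS1_UA arrays, and slide 3 held APP-PS1_WASHOUT and APP-PS1_UA-WASHOUT. The first principal component (45.3% of the variance) set slide 3 apart, so slide and genotype cannot be told apart in any contrast of the washout APP/PS1 groups with WT_WASHOUT. The labels fit the transgene check, since Prnp, whose transcribed flanks the transgene vector is known to carry, was 1.49 higher in APP-PS1_CTR than in WT_CTR (adjusted p = 2.41e-08 by limma) and Cst7 of plaque-associated microglia was 5.92 higher, while App was 0.24 higher (adjusted p = 0.73). Markers of neurons and of CA1 were present, with the mean level of 8 neuronal genes between 5.04 and 5.51 and that of 4 CA1 pyramidal genes between 2.32 and 2.99 over all arrays. Markers of tissue beside the hippocampus varied. Those of thalamus ran from 0.40 to 1.15 in WT_WASHOUT, 0.91 to 2.36 in APP-PS1_WASHOUT and 0.59 to 0.97 in APP-PS1_UA-WASHOUT. Choroid plexus markers ran from -2.12 to 4.18 over all arrays. The part of dissection in the subunit levels was not tested.

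Gabra2, the alpha2 subunit gene, had a lower mean in every APP/PS1 group than in the wild-type group of the same stage, by a called amount after washout, and no called change with urolithin A. In WT_CTR its levels were 2.36, 2.92, 2.63 and 1.77, with a mean of 2.42 ± 0.49 (SD, n = 4), and in APP-PS1_CTR they were 1.52, 1.81 and 1.38, with a mean of 1.57 ± 0.22 (n = 3). Of the WT_CTR arrays 3 lay above every APP-PS1_CTR array, and replicate 4 lay inside their range. The difference was -0.85 (SE 0.23, 1.80-fold lower), which did not pass over all probes (adjusted p = 0.29 by limma).

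In APP-PS1_UA the levels of Gabra2 were 1.74, 1.67, 1.94 and 2.09, with a mean of 1.86 ± 0.19 (n = 4). They overlapped with APP-PS1_CTR, and the difference of 0.29 (95% interval -0.19 to 0.78) was not called (adjusted p = 0.75 by limma). Against WT_CTR the treated animals differed by -0.56 (adjusted p = 0.81 by limma). These contrasts share animals with the one above.

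In WT_WASHOUT the levels of Gabra2 were 2.50, 2.22, 2.69, 2.65 and 1.82, with a mean of 2.38 ± 0.36 (n = 5). In APP-PS1_WASHOUT they were 1.43, 1.83 and 1.86, with a mean of 1.70 ± 0.24 (n = 3), and in APP-PS1_UA-WASHOUT they were 1.84, 1.66, 1.65, 1.20 and 1.55, with a mean of 1.58 ± 0.24 (n = 5). In WT_WASHOUT 4 of 5 arrays lay above every washout APP/PS1 array, and replicate 5 lay inside their range. Gabra2 fell by 0.67 in APP-PS1_WASHOUT against WT_WASHOUT (SE 0.22, 1.59-fold, adjusted p = 0.030 by limma), and by 0.80 in APP-PS1_UA-WASHOUT (SE 0.19, 1.74-fold, adjusted p = 0.0028). These contrasts share the WT_WASHOUT animals and lie between slides 2 and 3, and 25.8% and 35.5% of all probes were called in them, so calls were common on the array as a whole. The call against APP-PS1_WASHOUT was lost in a fit of those groups alone (adjusted p = 0.063) and in 5 of 8 fits that each left out 1 array (-0.81 to -0.53), these being WT_WASHOUT replicates 1, 3 and 4 and APP-PS1_WASHOUT replicates 1 and 2. The call in APP-PS1_UA-WASHOUT held in 10 of 10 such fits (-0.94 to -0.70). The washout groups of APP/PS1 mice with and without earlier urolithin A differed by -0.12 (95% interval -0.59 to 0.34, adjusted p = 0.93 by limma).

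A contrast free of slide 3, chosen after the data were seen, set the mean of APP-PS1_CTR and APP-PS1_UA against the mean of WT_CTR and WT_WASHOUT. Gabra2 was the 1 subunit of 7 that was called in it, where 0.596% of all probes were called. Its level fell by 0.68 (SE 0.16, 1.61-fold, adjusted p = 0.046 by limma). With slide as a block the change was -0.66 (adjusted p = 0.11) and with array row -0.64 (0.13), and the call was also lost with array medians (-0.67, 0.066). Of 16 fits that each left out 1 array, with changes between -0.79 and -0.60, the call held in 3, those without WT_CTR replicate 4, APP-PS1_UA replicate 4 or WT_WASHOUT replicate 5. Within slide 1 the transgenic levels ran from 1.38 to 1.81 and the wild-type levels from 1.77 to 2.92, and within slide 2 from 1.67 to 2.09 and from 1.82 to 2.69. Over all slides the 15 transgenic arrays (1.20 to 2.09, median 1.67) all lay below the wild-type median of 2.50, and 7 of 9 wild-type arrays lay above every transgenic array. The wild-type groups of the 2 stages differed by -0.04 (95% interval -0.47 to 0.38, adjusted p = 0.96 by limma).

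**Figure D1:**
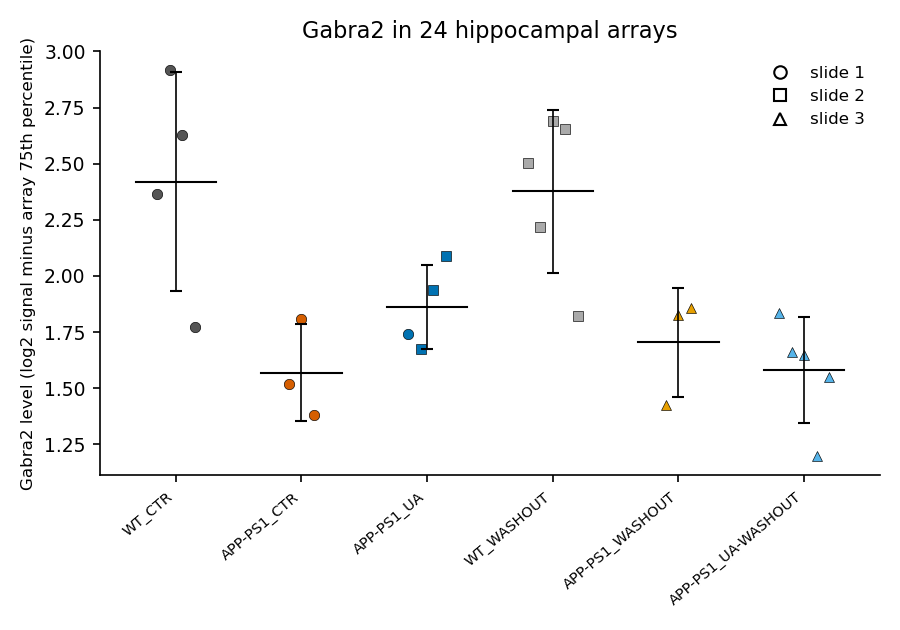
Level of the Gabra2 probe (log2 processed signal minus the array's 75th percentile) in each of 24 hippocampal arrays by group. Symbols give the slide, horizontal lines the group mean and bars 1 SD, and all transgenic arrays lie at or below 2.09 while 7 of 9 wild-type arrays lie above that.

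Gabra2 is known to differ between inbred strains, since C57BL/6J mice carry an intronic variant that lowers its RNA. The labels give no genotype at this gene. Among other genes the most like Gabra2 over the 24 arrays were 3110056K07Rik (Pearson r 0.77, Spearman 0.77), Wdfy1 (0.76, Spearman 0.54) and Ubxn2a (0.74, Spearman 0.73), as a description over arrays that share slides and scaling. For Wdfy1, an endosomal adaptor gene, the arrays formed separate clusters by genotype (2.18 to 2.83 in wild-type and 0.59 to 1.08 in transgenic arrays), and within them its correlation with Gabra2 was 0.17 and -0.12. For Ubxn2a, a ubiquitin-related gene, it was 0.61 within wild-type and 0.65 within transgenic arrays. Microglial markers moved with genotype beside Gabra2, since the mean level of all 6 listed genes lay between 1.74 and 2.22 on wild-type and between 2.29 and 2.77 on transgenic arrays. The mean level of 6 excitatory neuron markers overlapped (3.21 to 3.83 in wild-type and 2.73 to 3.59 in transgenic arrays), as did that of 8 neuronal markers. The part of these in the Gabra2 difference was not tested.

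Gabra3, the alpha3 subunit gene, was the most variable of the other 6 genes by its brightest probe, which ranged 3.26-fold over all arrays. Its levels were 2.27, 3.35, 2.12 and 2.31 in WT_CTR (mean 2.51 ± 0.56, n = 4), 1.86, 1.64 and 2.11 in APP-PS1_CTR (1.87 ± 0.23, n = 3) and 2.30, 3.26, 2.83 and 2.64 in APP-PS1_UA (2.76 ± 0.40, n = 4). All 3 APP-PS1_CTR arrays lay below every WT_CTR and every APP-PS1_UA array. The differences were -0.64 against WT_CTR (SE 0.37, adjusted p = 0.77) and 0.89 for APP-PS1_UA against APP-PS1_CTR (SE 0.37, adjusted p = 0.57), and neither was called by limma. The second Gabra3 probe gave -0.79 (adjusted p = 0.73) and 1.13 (adjusted p = 0.54) with the same order of groups, and the probes correlated at 0.90. WT_CTR and APP-PS1_CTR lie on different array rows of slide 1, and with row as a term the brightest probe gave -0.16 and 0.52. With slide as a term the treatment difference of Gabra3 was 0.43, which rests on 1 APP-PS1_UA array on slide 1.

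After washout Gabra3 varied as much within groups as between them. Its levels were 3.14, 3.01, 2.19, 3.24 and 2.52 in WT_WASHOUT, 2.45, 2.34 and 3.16 in APP-PS1_WASHOUT, and 3.07, 3.17, 3.33, 1.85 and 2.14 in APP-PS1_UA-WASHOUT. The groups overlapped fully. The difference with genotype was -0.17 (adjusted p = 0.77) and that with earlier urolithin A was 0.06 (95% interval -0.67 to 0.79, adjusted p = 0.98), by limma. The change with urolithin A at the washout stage differed from that at the end of treatment by -0.82 (adjusted p = 0.57), a difference that did not pass.

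The level of Gabra3 tracked 3 neuronal genes closely, whatever the group. Grp, which encodes the neuropeptide gastrin-releasing peptide, correlated with it at r 0.97 (Spearman 0.95, n = 24), Btbd11 at 0.97 and the somatostatin receptor gene Sstr1 at 0.96. Within wild-type arrays the r with Grp was 0.95 and within transgenic arrays 0.98, and it was 0.97 on slides 1 and 2 and 0.99 on slide 3. In APP-PS1_CTR the level of Grp was -0.03, -0.74 and 0.55, the lowest array being also the lowest for Gabra3. Markers of dentate granule cells also set APP-PS1_CTR apart from both other groups of this stage, which no other list did. The margin to APP-PS1_UA was narrow, with a lowest APP-PS1_CTR array of 1.3774 and a highest APP-PS1_UA array of 1.3745. Against WT_CTR alone other lists were apart too. Among them were microglial markers (2.37 to 2.47 against 1.98 to 2.19) and striatal markers (-1.67 to -1.44 against -1.22 to -1.07). The mean level of 6 dentate granule cell markers lay between 1.38 and 1.57 in APP-PS1_CTR, above WT_CTR (0.83 to 1.32) and APP-PS1_UA (0.54 to 1.37). In the same order of groups, CA1 markers overlapped (2.64 to 2.80, 2.32 to 2.96 and 2.71 to 2.99). So did CA3 markers (1.18 to 1.34, 1.15 to 1.42 and 1.09 to 1.28). The 7 choroid plexus markers overlapped as well (1.92 to 3.50, -1.23 to 3.72 and -1.77 to 4.18). Their part in the Gabra3 levels was not tested.

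Gabra4, the alpha4 subunit gene, and Gabra5 fell in APP-PS1_UA-WASHOUT against WT_WASHOUT, by small amounts. For Gabra4 the levels were 3.64, 3.94, 4.05, 3.80 and 4.18 in WT_WASHOUT (mean 3.92 ± 0.21, n = 5), 3.64, 3.88 and 4.01 in APP-PS1_WASHOUT (3.84 ± 0.19, n = 3) and 3.32, 3.66, 3.59, 3.42 and 3.50 in APP-PS1_UA-WASHOUT (3.50 ± 0.13, n = 5). Of the APP-PS1_UA-WASHOUT arrays 4 of 5 lay below every array of the other washout groups, and replicate 2 lay above the lowest array of each. Gabra4 fell by 0.42 against WT_WASHOUT (SE 0.12, 1.34-fold, adjusted p = 0.0082 by limma), a call that held in 10 of 10 fits without 1 array. The difference from APP-PS1_WASHOUT, which lies within slide 3, was -0.35 (SE 0.14, adjusted p = 0.49 by limma) and was not called.

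At the end of treatment Gabra4 did not separate the groups. Its mean was 3.79 ± 0.22 in WT_CTR (3.52 to 3.99), 3.96 ± 0.14 in APP-PS1_CTR (3.86 to 4.12) and 4.02 ± 0.18 in APP-PS1_UA (3.78 to 4.22). Neither the genotype difference of 0.16 (95% interval -0.13 to 0.46, adjusted p = 0.83) nor the treatment difference of 0.06 (-0.23 to 0.36, adjusted p = 0.93) was called by limma. The genes most like Gabra4 were the long noncoding RNA Chaserr (r 0.94), the Golgi calcium pump gene Atp2c1 (0.92) and the spliceosome helicase gene Snrnp200 (0.91), each at 0.86 or above on slides 1 and 2 and on slide 3.

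Gabra5, the alpha5 subunit gene, had 2 probes that correlated at 0.78. Its brightest probe gave 4.51, 4.85, 5.03, 4.66 and 4.73 in WT_WASHOUT (mean 4.76 ± 0.20), 4.71, 4.86 and 4.50 in APP-PS1_WASHOUT (4.69 ± 0.18) and 4.28, 4.55, 4.28, 4.74 and 4.44 in APP-PS1_UA-WASHOUT (4.46 ± 0.19). The 3 groups overlapped. It fell by 0.30 in APP-PS1_UA-WASHOUT against WT_WASHOUT (SE 0.11, 1.23-fold, adjusted p = 0.037 by limma), and the second probe differed by -0.30 as well but was not called (adjusted p = 0.14). The call held in 4 of 10 fits without 1 array (-0.37 to -0.23), and was lost without WT_WASHOUT replicate 2, 3 or 5 or APP-PS1_UA-WASHOUT replicate 1, 3 or 5. In the authors' deposited value table, a score in SD units of each array, the difference was 0.002 for Gabra5 (adjusted p = 0.96) and -0.052 for Gabra4 (adjusted p = 0.14). Neither call stood on that scale.

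At the end of treatment the Gabra5 means were 4.88 ± 0.12 in WT_CTR, 5.02 ± 0.14 in APP-PS1_CTR and 4.96 ± 0.10 in APP-PS1_UA. The differences of 0.14 with genotype (adjusted p = 0.84) and -0.06 with urolithin A (95% interval -0.33 to 0.21, adjusted p = 0.93) were not called by limma. The genes most like Gabra5 were the actin regulator gene Arpc5 (r 0.92), Mtmr12 (0.91) and the potassium channel gene Kcnd2 (0.91). On slides 1 and 2 alone these were 0.83, 0.82 and 0.80.

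**Figure D2:**
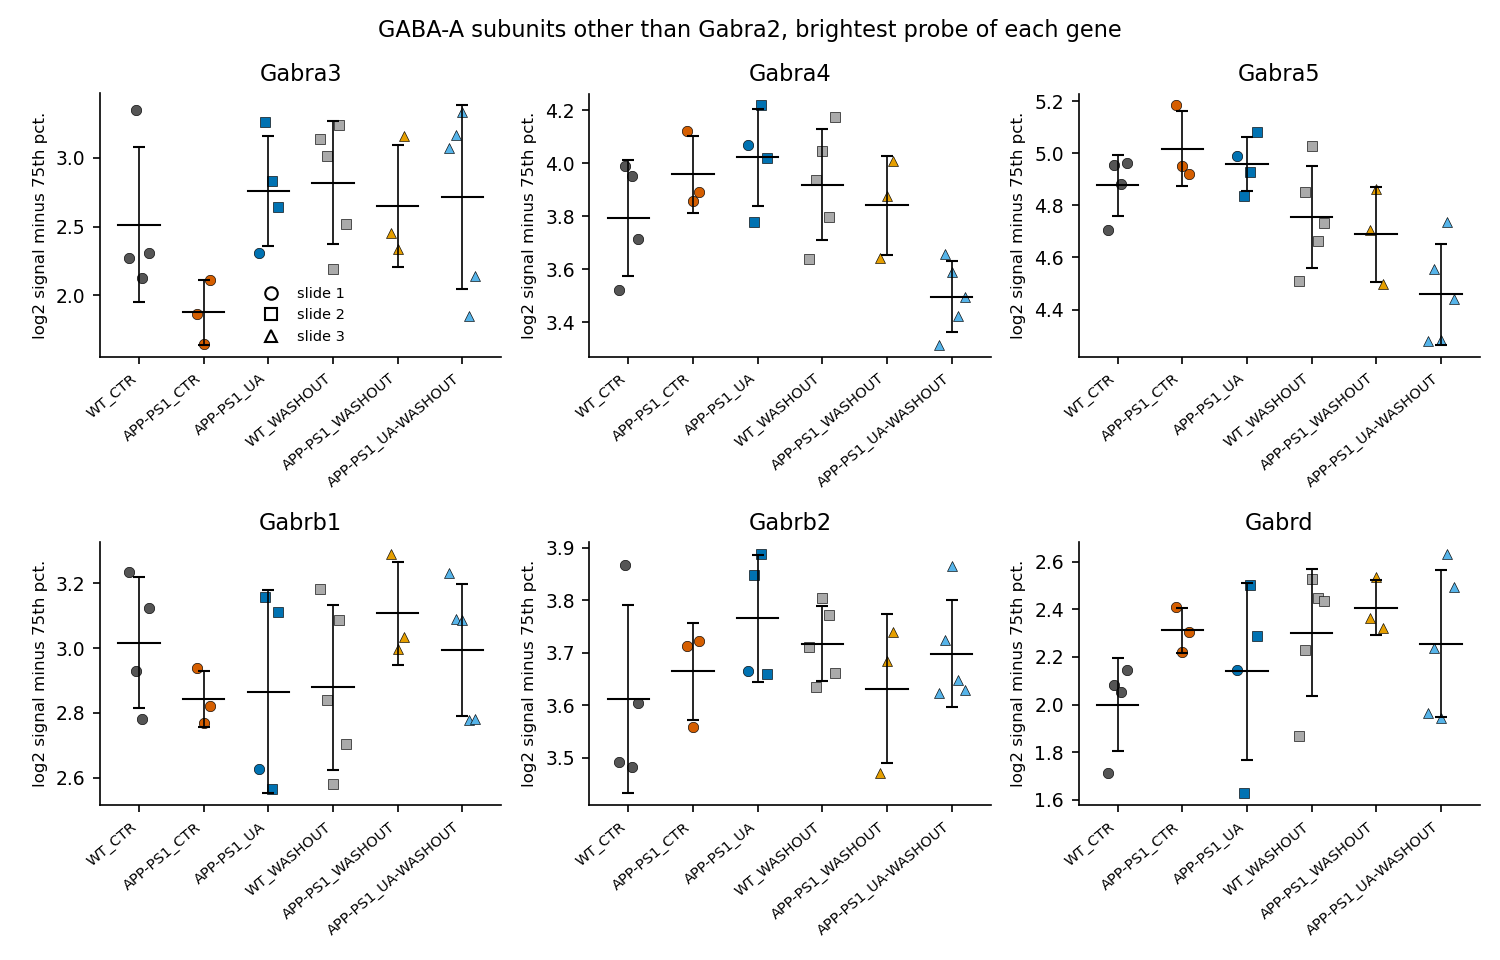
Levels of the brightest probe of Gabra3, Gabra4, Gabra5, Gabrb1, Gabrb2 and Gabrd (log2 processed signal minus the array's 75th percentile) in 24 arrays by group, with slides as symbols, group means as lines and 1 SD as bars. The vertical scales differ between panels; Gabra3 in APP-PS1_CTR lies below WT_CTR and APP-PS1_UA, and Gabra4 is lowest in APP-PS1_UA-WASHOUT.

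Among the beta subunits Gabrb1 was not called in any of the 10 contrasts. Its levels were 3.23, 2.93, 2.78 and 3.12 in WT_CTR (mean 3.02 ± 0.20), 2.94, 2.77 and 2.82 in APP-PS1_CTR (2.84 ± 0.09) and 2.63, 3.16, 2.56 and 3.11 in APP-PS1_UA (2.87 ± 0.31). After washout the means were 2.88 ± 0.25, 3.11 ± 0.16 and 2.99 ± 0.20 in WT_WASHOUT, APP-PS1_WASHOUT and APP-PS1_UA-WASHOUT. Its differences were -0.17 with genotype (adjusted p = 0.85) and 0.02 with urolithin A (adjusted p = 0.98) at the end of treatment, and 0.23 (adjusted p = 0.33) and -0.11 (adjusted p = 0.91) after washout, by limma. The genes most like it were the chromatin remodelling subunit gene Smarcd3 (r 0.91), the serotonin receptor gene Htr3a (0.90) and Cfap410 (0.89).

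Gabrb2, the beta2 subunit gene, was measured by 3 probes that followed each other on some slides and not on others. The brightest was nearly flat, between 3.47 and 3.89 over all arrays (1.34-fold), with group means from 3.61 in WT_CTR to 3.77 in APP-PS1_UA. It correlated with the second probe at 0.42 over all arrays, 0.55 on slides 1 and 2 and 0.07 on slide 3, and with the third at 0.03, 0.26 and -0.53. The second and the third correlated at 0.47 over all arrays, 0.81 on slides 1 and 2 and 0.13 on slide 3. The second probe lay at -0.47, -0.91 and -0.51 in APP-PS1_CTR and at -0.30, -0.21, 0.03 and -0.21 in APP-PS1_UA. All 4 treated arrays were higher, by 0.45 on average (SE 0.17), which was not called (adjusted p = 0.56 by limma). That probe fell by 0.39 in APP-PS1_UA-WASHOUT against WT_WASHOUT (adjusted p = 0.035 by limma), where the brightest differed by -0.02 (adjusted p = 0.89) and the third by 0.21 (adjusted p = 0.35). This call of the second probe was lost in a fit of those groups alone (adjusted p = 0.072) and without WT_WASHOUT replicate 1, 3 or 4 or APP-PS1_UA-WASHOUT replicate 1 or 4. The third probe was not called in any contrast. The genes most like the brightest Gabrb2 probe were Lypd6b (r 0.89), Plcl2 (0.87), whose protein binds GABA-A receptors and takes part in their trafficking, and Reep1 (0.86).

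Gabrd, the delta subunit gene, was higher in all 3 APP-PS1_CTR arrays (2.41, 2.22 and 2.31) than in all 4 WT_CTR arrays (1.71, 2.08, 2.05 and 2.15). The means were 2.31 ± 0.09 and 2.00 ± 0.20, and the difference of 0.31 (SE 0.20) was not called (adjusted p = 0.78 by limma). With slide and array row as terms it was -0.14, so its direction was not kept. Dentate granule cell markers, from the cells that delta is best known from, stood higher in the same arrays, as given above, and their part in the Gabrd levels was not tested. In APP-PS1_UA the levels were 2.14, 1.63, 2.50 and 2.29, which overlapped with both groups (difference from APP-PS1_CTR -0.17, adjusted p = 0.84). After washout Gabrd had means of 2.30 ± 0.27, 2.41 ± 0.11 and 2.25 ± 0.31 in WT_WASHOUT, APP-PS1_WASHOUT and APP-PS1_UA-WASHOUT, and its differences of 0.11 with genotype (adjusted p = 0.73) and -0.15 with earlier urolithin A (adjusted p = 0.89) were not called by limma. The genes most like it were Nudt13, Ncoa3 and the secretory granule gene Chgb (r 0.81 each).

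Counted together, 0 of 7 subunit genes were called in APP-PS1_CTR against WT_CTR, where 0.164% of all probes were called, and the median change of the 7 was 0.05 against -0.02 over all probes. In APP-PS1_UA against APP-PS1_CTR 0 of 7 were called, as were 0% of all probes (3583 had an unadjusted p under 0.05 by limma, and 9 probes were called with array weights and 10 with slide as a block). In APP-PS1_WASHOUT against WT_WASHOUT 1 of 7 was called and in APP-PS1_UA-WASHOUT against WT_WASHOUT 3 of 7, all lower, with 25.8% and 35.5% of all probes called, so a called subunit there is read against that background. Of those called probes 8118 were higher and 3218 lower in the first contrast and 9422 and 6203 in the second. With array medians in place of the 75th percentile the splits were 5653 and 9631, and 6583 and 18049, and the median change of all probes was -0.15 and -0.28 in place of 0.07 and 0.02. Relative to the median of all probes, which by construction gives both of these scalings the same values, Gabra2 differed by -0.75 and -0.81, and in the second contrast Gabra4 by -0.44 and Gabra5 by -0.32. With quantile normalization these were -0.60 and -0.64 for Gabra2, -0.29 for Gabra4 and -0.18 for Gabra5. In the authors' deposited table they were -0.15 and -0.14 for Gabra2 in score units, and Gabra4 (0.006) and Gabra5 (0.060) did not lie below the median of all probes. In APP-PS1_UA-WASHOUT against APP-PS1_WASHOUT, within slide 3, 0 of 7 were called and 0.0637% of all probes were. None was called in APP-PS1_UA against WT_CTR (0.0523% of all probes) or WT_WASHOUT against WT_CTR (0.0136%). The change with genotype did not differ between the stages for any of the 7 (0 called, 13.1% of all probes), nor did the change with urolithin A (0 called, 0.00227%), which does not show that the changes were alike. At an unadjusted p under 0.05 by limma the 7 genes gave 1 in APP-PS1_CTR against WT_CTR (Gabra2), 1 in APP-PS1_UA against APP-PS1_CTR (Gabra3) and 1 in APP-PS1_UA-WASHOUT against APP-PS1_WASHOUT (Gabra4), where 6.8%, 8.15% and 8.35% of all probes did.

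**Figure D3:**
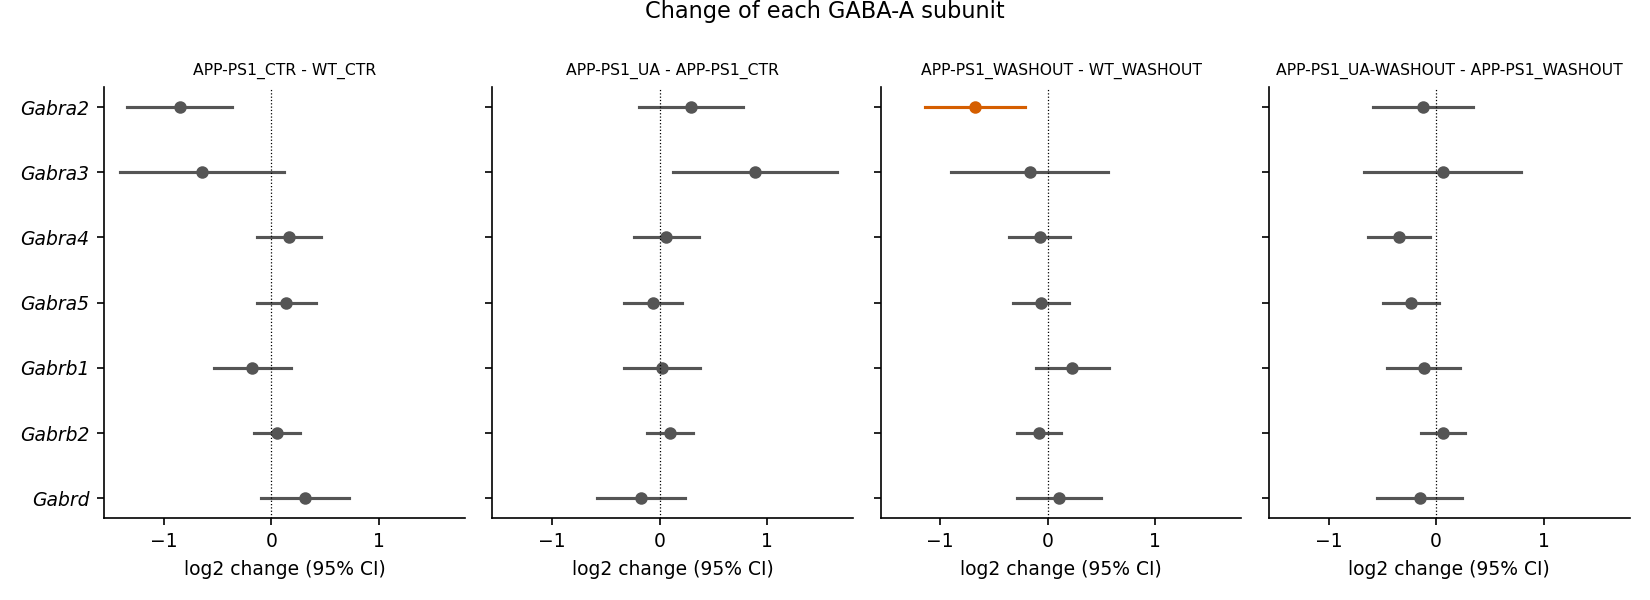
Change of the brightest probe of each subunit gene (log2, horizontal axis) with its 95% interval from the limma fit in 4 contrasts. Orange marks an adjusted p under 0.05 and grey the rest; Gabra2 in APP-PS1_WASHOUT minus WT_WASHOUT is the 1 change marked.

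Of the 21 pairs among the 7 genes, 4 were correlated over the 24 arrays at an adjusted permutation p under 0.05. The permutations exchange arrays across groups and slides, so these p-values do not separate a link between genes from levels that both differ by group or slide, and the correlation of deviations from group means is given beside each as a description. Gabra4 and Gabra5 were high on the same arrays (r 0.69, Spearman 0.67, permutation p = 0.00022, adjusted 0.0046). That correlation was 0.57 on slides 1 and 2, 0.39 on slide 3 and 0.65 without the 2 arrays farthest from the median of Gabra4, and 0.40 for deviations from group means. Gabra3 and Gabrb2 correlated at 0.56 (Spearman 0.55, permutation p = 0.0052, adjusted 0.037), with 0.58 on slides 1 and 2, 0.56 on slide 3, 0.44 without the 2 farthest arrays and 0.60 for deviations from group means.

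The other 2 pairs ran in opposite directions, and both held Gabrb1. Gabrb1 was low where its neighbour Gabra4 was high (r -0.57, Spearman -0.57, permutation p = 0.0041, adjusted 0.037), with -0.65 without the 2 farthest arrays and -0.66 for deviations from group means. The r was -0.78 over the 16 arrays of slides 1 and 2 and 0.06 over the 8 arrays of slide 3, so the relation did not hold on slide 3. Gabrb1 and Gabrd correlated at -0.53 (Spearman -0.51, permutation p = 0.0084, adjusted 0.044), with -0.63 on slides 1 and 2, -0.65 on slide 3, -0.44 without the 2 farthest arrays and -0.67 for deviations from group means, although the adjusted p of its Spearman value was 0.066. Gabra4 and Gabrd, whose proteins pair in extrasynaptic receptors, correlated at 0.31 (permutation p = 0.14, adjusted 0.28). Their r was 0.72 on slides 1 and 2, 0.22 on slide 3 and 0.54 for deviations from group means. Gabra5 and Gabrd did not pass (r 0.24, permutation p = 0.26, adjusted 0.41). Yet their correlation of deviations from group means, 0.71, was the largest of the 21 pairs, with r 0.40 on slides 1 and 2 and 0.82 on slide 3.

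**Figure D4:**
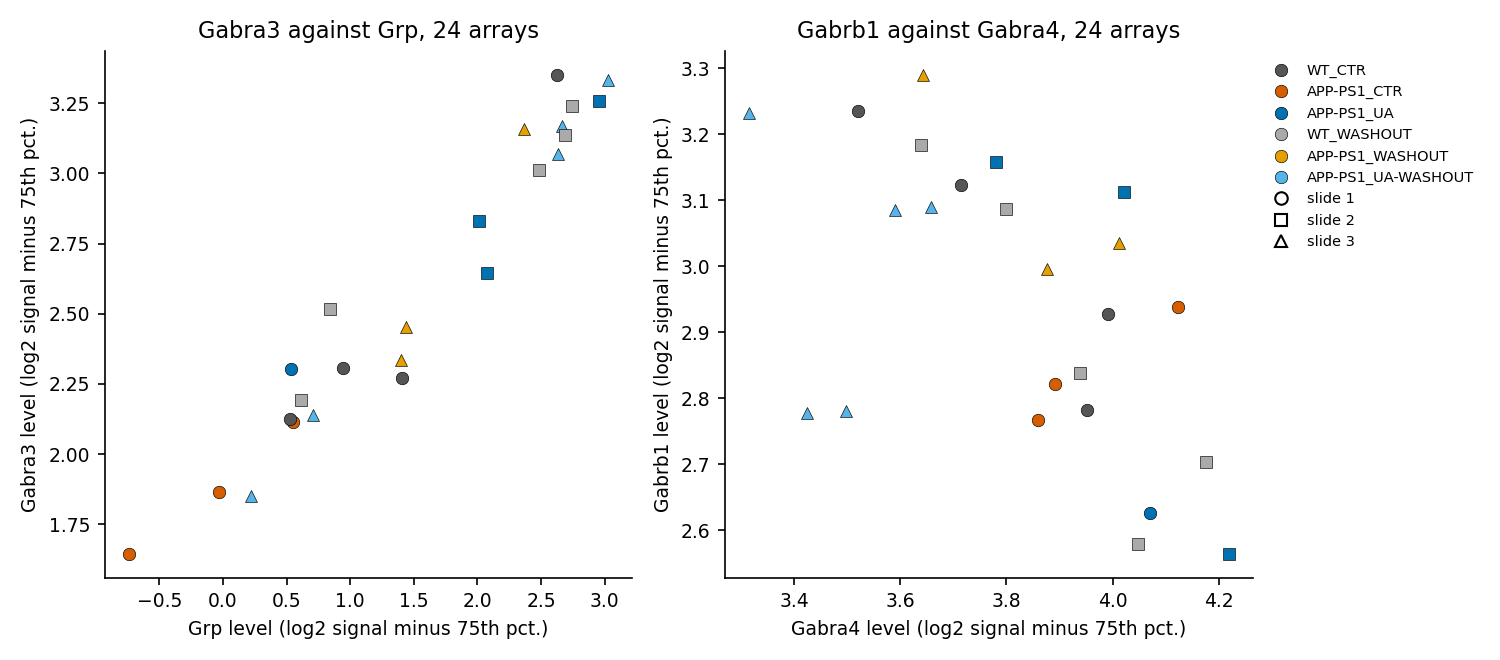
Gabra3 against Grp (left) and Gabrb1 against Gabra4 (right), each point 1 of 24 arrays, with levels as log2 processed signal minus the array's 75th percentile, colours for groups and symbols for slides. Gabra3 rises with Grp on every slide (r 0.97), while Gabrb1 falls with Gabra4 on slides 1 and 2 (r -0.78) and not on slide 3 (0.06).

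The rest of the GABA system gave the setting for these genes. In each of 5 contrasts, APP-PS1_CTR with WT_CTR, APP-PS1_UA with APP-PS1_CTR or with WT_CTR, APP-PS1_UA-WASHOUT with APP-PS1_WASHOUT and WT_WASHOUT with WT_CTR, 0 genes were called among 10 other GABA-A subunits tested, 22 anchoring and trafficking genes, 8 genes of GABA synthesis and uptake, 8 of the GABA-B receptor and its channels, 8 of chloride transport and 4 glycine receptor genes. In APP-PS1_CTR against WT_CTR all 8 genes of GABA synthesis and uptake had a change below 0 (median -0.21), as did 53.2% of all probes. In APP-PS1_UA against APP-PS1_CTR 7 of the 8 had one above 0 (median 0.20), as did 50.4% of all probes. None of them passed, and these contrasts share the APP-PS1_CTR arrays. The vesicular GABA transporter gene Slc32a1 differed by -0.28 (adjusted p = 0.77 by limma) and 0.51 (adjusted p = 0.54).

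Against WT_WASHOUT 2 of the 10 other subunit genes rose and 4 fell in each washout APP/PS1 group. Of all probes 25.8% were called in APP-PS1_WASHOUT and 35.5% in APP-PS1_UA-WASHOUT, so these counts are read against that background. Gabrr1, a rho subunit gene known from the retina, rose by 1.26 in APP-PS1_WASHOUT and 1.25 in APP-PS1_UA-WASHOUT (adjusted p = 2.73e-06 and 1.96e-07 by limma). Gabrg3 rose by 0.48 in APP-PS1_WASHOUT (adjusted p = 0.021), a call that was lost under each of 4 other scalings. Gabrp was called lower in both and Gabrr3 higher in APP-PS1_UA-WASHOUT, but both were near background. Gabrp was well above it on 4 of 5 WT_WASHOUT, 1 of 3 APP-PS1_WASHOUT and 0 of 5 APP-PS1_UA-WASHOUT arrays and Gabrr3 on 0 of 5 WT_WASHOUT arrays, and no fold is given.
Of the trafficking genes Trak1, a kinesin adaptor, fell by 0.63 and 0.58, and Gphn, the gephyrin scaffold of inhibitory synapses, and Zdhhc3 fell in APP-PS1_UA-WASHOUT (by 0.36 and 0.35). Gad1, which makes GABA, fell by 0.50 and 0.59, the potassium channel gene Kcnj3 by 0.33 and 0.60 and the chloride exchanger gene Clcn3 by 0.27 and 0.37. Kctd16, Oxsr1, Glra3 and Glrb were called lower in APP-PS1_UA-WASHOUT, and none of them was called between the washout APP/PS1 groups. All these contrasts lie between slides 2 and 3. The genes named do not stand for their lists. The synthesis and uptake list had a higher mean level in APP-PS1_WASHOUT than in WT_WASHOUT, and a lower one in APP-PS1_UA-WASHOUT. Its arrays overlapped, at 2.93 to 3.19 in WT_WASHOUT, 2.93 to 3.25 in APP-PS1_WASHOUT and 2.70 to 3.46 in APP-PS1_UA-WASHOUT. The anchoring and trafficking list had the same order of group means and overlapped as well. In the test of whether the genotype change differed between stages, 4 other subunit genes were called, among them Gabrg3 (1.09) and Gabrr1 (1.45), where none of the 7 was.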

How the data were processed

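Hippocampal RNA of 24 mice was labelled with Cy3 and hybridised to Agilent 1-colour arrays, read with Feature Extraction 12.0.3.1 per the submitters' processing notes. Per the file headers the deposited processed signal is an intensity that Agilent's software corrected for background. The authors' deposited value table holds a score per probe, the log signal standardized within each array. Groups came from the labels, and no per-sample columns were left unused.

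Levels were log2 of the processed signal minus the array's 75th percentile. Of 56605 probes, 43988 were well above background on at least 3 arrays, 1212 outlier-flagged values were removed, and 43973 probes with at least 2 values in each group were tested with limma 3.58.1 (R 4.3.3), as 6 group means and 10 contrasts with Benjamini-Hochberg adjustment at 0.05. Precision is limited by how many arrays each group has. The test was checked on simulated data. A gene is represented by its brightest tested probe. Other genes named are, per list and contrast, up to 4 called genes with the largest change, with no call at most 2 of highest mean level, and per subunit the 3 genes of highest Pearson correlation. Members and lists were chosen with earlier results of these data known. Added after the data were seen were the contrast on slides 1 and 2 and normexp on the median spot signal, used in place of the planned mean signal. Other alternatives were scaling, filters, array weights, slide and row terms, a replicate block and leaving out each array. Values of some listed genes are not reported here.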

Additional observations from a re-analysis of the deposited data

Results flagged for a closer look

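In WT_CTR the level of the brightest Gabra3 probe in replicate 2 (3.351) stood apart from the other 3 arrays, which lay between 2.125 and 2.308. Its gap to the next array was 0.851 of the group's range, above Dixon's 95% critical value for 4 samples. It was the 1 such value among 44 groups of 4 or 5 arrays tested, where chance gives about 1 in 20.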

How the results depend on the processing

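In APP-PS1_WASHOUT against WT_WASHOUT the count of called subunit genes was 1, and it was 2 with array medians, 0 in a fit of those groups alone and 0 to 1 without 1 array. In APP-PS1_UA-WASHOUT against WT_WASHOUT it was 3, and 1 in the authors' value table, where the Gabra5 change turned to 0.002 in score units. With array medians Gabrb2 was called in that contrast beside those 3 (adjusted p = 0.015 by limma). Gabra5 kept its call there in 4 of 10 fits without 1 array, so the count was lower in the others. In the contrast chosen after the data were seen it was 1, and 0 with array medians, with no filter, with slide, row or both as terms, in a fit of those groups alone, and 0 to 1 without 1 array. The cause was not tested. With array medians the brightest Gabrb2 probe was called at -0.31 in both contrasts with WT_WASHOUT. Over all probes the count called for APP-PS1_CTR against WT_CTR was 72, and ran from 4 with slide and row terms to 176 with array weights. Of the values under alternative settings 1574 stayed on their side of the threshold, and of these 1463 kept their sign and 111, none of them called, changed it. A further 3 passed the threshold newly, 10 no longer passed and 1 called value reversed. Most of the values that stayed were not called in the reported fit, so their number says little about how stable the calls are. In fits without 1 array 1104 values stayed on their side, and 29 no longer passed.

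Same-numbered arrays of different groups had a median correlation of deviations of 0.015, against 0.007 for arrays of different numbers. Of 24 arrays 9 correlated best with their own number, a count that was not set against chance. These values do not settle whether replicate numbers pair the animals. With a replicate block the counts of called subunits were unchanged (1, 3 and 1 in the contrasts above, 0 in the others), and 42 probes were called for APP-PS1_CTR against WT_CTR.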
